A study of Mus musculus with 39 samples.

Results

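Foxo1, Foxo3, Fbxo32, Trim63, Ddit4, Sesn1 and Klf15 are 7 genes of the muscle wasting programme, and their RNA levels were followed here across all 10 groups of a mouse muscle stem cell study. They were named as genes of this programme, with earlier results of these data known, and all 7 were found among the 16979 genes of the labelling and inhibition table and among the 13938 genes of the fixation table. On mm10, Foxo1 lies at chr3:52268337-52350109 (+ strand), Foxo3 at chr10:42181841-42276755 (- strand) and Fbxo32 at chr15:58175879-58214892 (- strand). Trim63 lies at chr4:134315120-134329629 (+ strand), Ddit4 at chr10:59949675-59951770 (- strand), Sesn1 at chr10:41810574-41908424 (+ strand) and Klf15 at chr6:90462576-90475238 (+ strand). The values count reads over each gene's model as a whole.

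Polyadenylated RNA was sequenced in 39 libraries. The labelling mice were Pax7CreER/+: UPRTHA/+, so Cre under the stem cell gene Pax7 switched on UPRT, an enzyme that lets cells build 4-thiouracil (4tU) into new RNA. 4tU was injected 6 h before harvest, or every 12 h for 1 d or for 4 d, and tagged RNA was pulled down from the RNA of hindlimb muscle (the 6 h, 1 d and 4 d label groups, n = 4 each). Total RNA of hindlimb muscle, titled input and called whole muscle here, was the reference without a pull-down (n = 4). Values of the label groups are thus levels within tagged RNA. Between these groups, the length of the label and a change of level cannot be told apart. Stem cells were also purified over about 6 h, with no addition (isolated cells, n = 4), with 4tU and a pull-down (isolation label, n = 4), with the RNA polymerase II inhibitor alpha-amanitin (n = 4) or with its solvent control DMSO (n = 4). A separate experiment compared stem cells of mice perfused with 1% paraformaldehyde before isolation (fixed, n = 4) with unfixed ones (n = 3). The labels give no age, feeding state or hour of harvest, and no genotype for the fixation mice. Nor do they say that the replicates came from different animals, and the p-values therefore measure the spread between libraries, which may be technical.

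FoxO transcription factors are held in the cytoplasm when insulin or IGF1 activates the kinase Akt, and enter the nucleus when that signal falls or stress rises. In muscle fibres they switch on ubiquitin ligases that mark fibre proteins for the proteasome, among them Fbxo32 (atrogin-1) and Trim63 (MuRF1). Glucocorticoids, fasting and disuse raise these ligases too, and they also raise Klf15, a zinc finger factor of amino acid breakdown, and Ddit4 (REDD1), which restrains the growth kinase complex mTORC1. Sesn1 (sestrin 1) restrains mTORC1 as well, as a sensor of leucine.

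RefSeq promoter entries (GRCm38.p6) matched 6 of the 7 genes, all but Fbxo32, and the 250 bases before the start were searched on both strands for 5 motifs. These were the FoxO sites GTAAACA and CAAAACA, the glucocorticoid response element (AGAACA, any 3 letters, TGTTCT), the E-box CACGTG and the Kruppel-like factor site CACCC. The sequence GTAAACA stood in 3.17% of 32851 promoters and, among the 6 genes, in that of Trim63 only, on the - strand and 194 bases upstream. CAAAACA (5.56% of promoters) and the exact response element (0.00913%) stood in none of the 6. With at most 1 mismatch among its 12 fixed letters, a search added after the sequence had been seen, the response element stood in 46 promoters (0.14%), Trim63 among them, 209 bases upstream and with 0 bases between it and the FoxO site. A paired glucocorticoid receptor and FoxO element is known from the Trim63 promoter. The E-box (6.02% of promoters) occurred 2 times in Klf15, 228 and 172 bases upstream. CACCC (52.0%) occurred 2 times in Sesn1 and 1 time in Klf15. Trim63 and Klf15 are shown because their promoters held the rarer motifs, and Ddit4 because its level differed most between the labels. Capitals mark the response element with 1 mismatch followed by the FoxO site in Trim63, and the E-boxes in Klf15. The regions are chr4:134314870-134315119 (+ strand) for Trim63, chr6:90462326-90462575 (+ strand) for Klf15 and chr10:59951771-59952020 (- strand) for Ddit4.
Trim63: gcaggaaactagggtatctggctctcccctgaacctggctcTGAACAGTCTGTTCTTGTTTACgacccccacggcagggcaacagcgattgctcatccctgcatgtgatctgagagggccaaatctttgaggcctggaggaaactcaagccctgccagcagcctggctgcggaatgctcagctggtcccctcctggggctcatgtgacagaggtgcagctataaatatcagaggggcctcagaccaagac
Klf15: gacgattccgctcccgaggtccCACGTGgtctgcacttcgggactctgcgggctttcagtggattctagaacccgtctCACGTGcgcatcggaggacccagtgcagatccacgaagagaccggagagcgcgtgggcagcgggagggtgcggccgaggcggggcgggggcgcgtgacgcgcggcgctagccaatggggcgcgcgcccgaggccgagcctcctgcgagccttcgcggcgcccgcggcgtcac
Ddit4: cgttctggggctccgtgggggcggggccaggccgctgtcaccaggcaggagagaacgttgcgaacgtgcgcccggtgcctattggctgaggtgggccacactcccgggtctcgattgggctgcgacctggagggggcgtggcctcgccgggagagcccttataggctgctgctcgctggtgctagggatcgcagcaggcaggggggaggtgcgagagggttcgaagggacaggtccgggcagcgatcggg

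Among the 8 groups of the labelling table, all 7 genes had their highest mean in RNA labelled for 6 h, and none of the 6 h libraries overlapped any of the 1 d, 4 d or whole muscle libraries. The genes differed in how far they stood above the longer labels. Ddit4 and Foxo1 were more than 9-fold higher at 6 h than at 1 d, Trim63, Klf15 and Foxo3 about 2.5-fold to 3.2-fold higher, and Sesn1 and Fbxo32 less than 1.6-fold higher. In limma on log2(RPKM + 0.5), 7 of 7 were higher and called at an adjusted p under 0.05 at 6 h against 1 d, where 86.2% of all 11822 genes tested were called, 50.0% higher and 36.2% lower. Against 4 d again 7 of 7 were higher, where 88.7% of genes were called, 52.7% higher and 36.1% lower, and against whole muscle 7 of 7, where 90.0% were called, 45.6% higher and 44.4% lower. These comparisons share the 6 h libraries. The median change of the 7 genes was 1.63 on the log2 scale against 1 d, 2.28 against 4 d and 1.93 against whole muscle, beside medians of 0.13, 0.18 and 0.02 over all genes tested. All log2 changes are of RPKM + 0.5, which understates the change of genes at low levels.

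**Figure D1:**
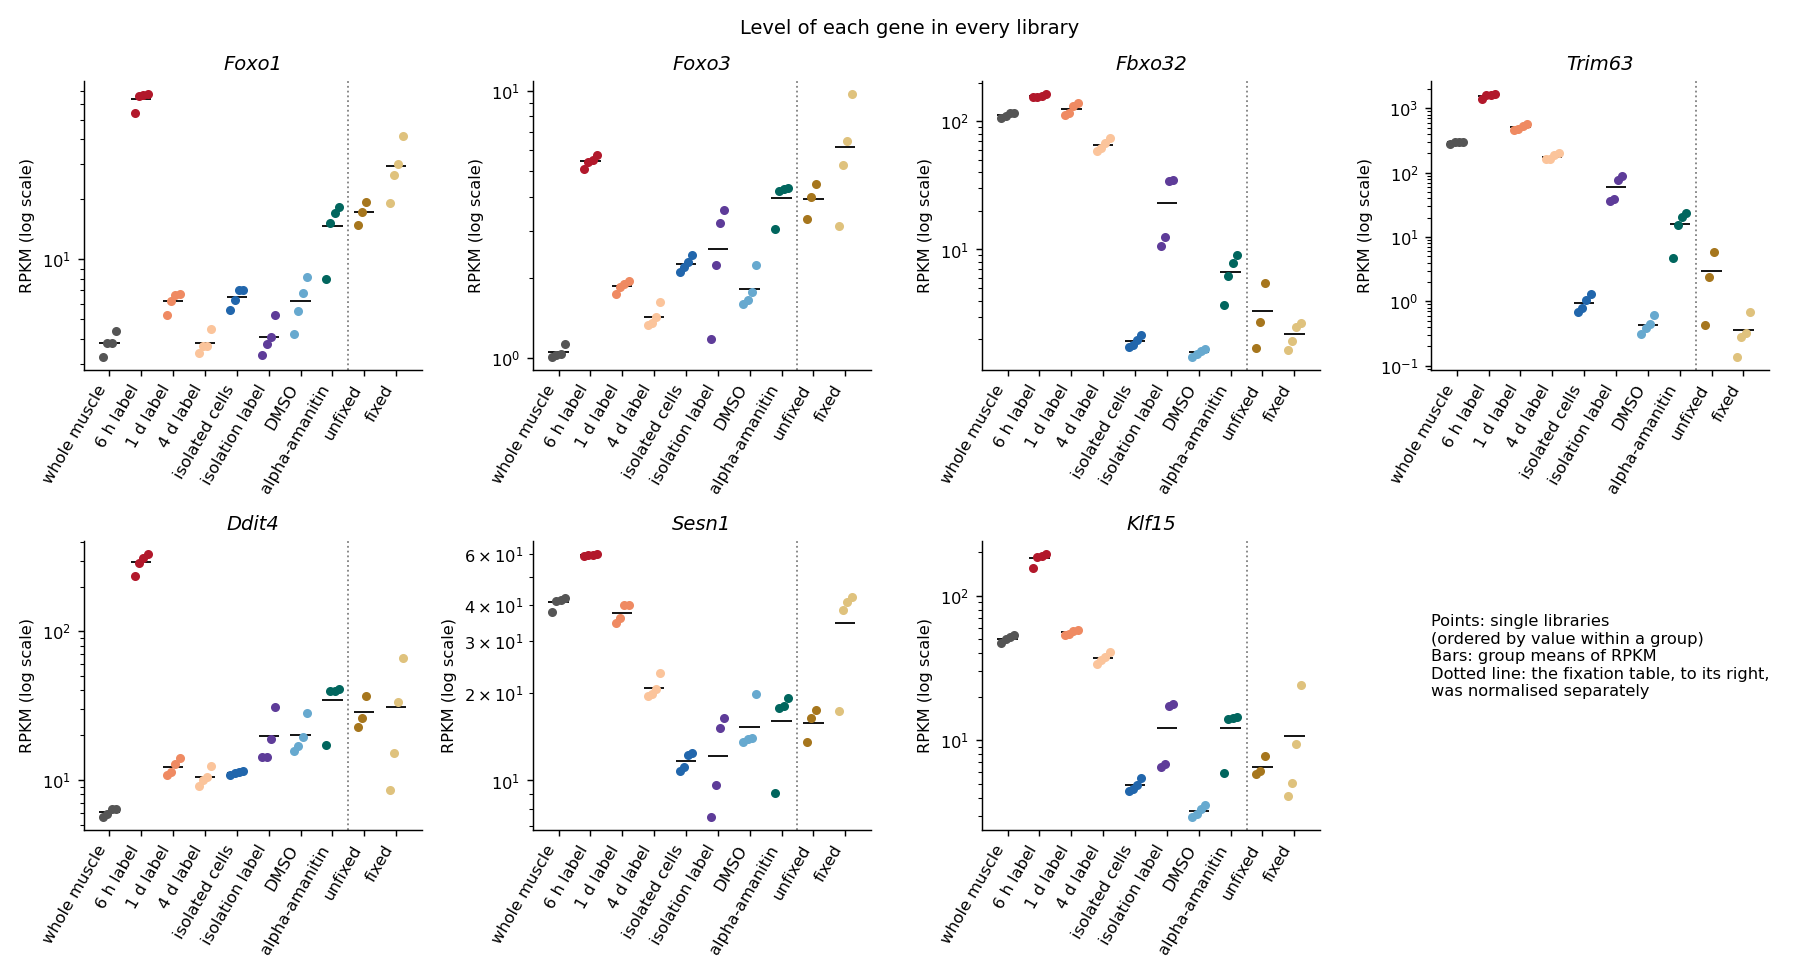
RPKM (log scale) of each of the 7 genes in every library, by group, with bars at the group means. The 6 h label stands above all other groups of the labelling table for each gene, and Fbxo32, Trim63 and Klf15 are far lower in isolated cells than in whole muscle.

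Fibre markers took a far larger share of the tagged RNA than satellite cell markers did. Although the labels call the label groups skeletal muscle stem cells, 10 fibre markers such as Acta1 took 9.58% to 9.76% of the reads at 6 h, 17.5% to 17.8% at 1 d and 16.8% to 17.3% at 4 d, against 14.3% to 14.8% in whole muscle. A list of 7 satellite cell markers took 0.0268% to 0.0319% at 6 h and at most 0.00496% in the other 3 groups, against 0.608% to 0.624% in isolated cells. Pax7 stood at 0.318 ± 0.0581 RPKM at 6 h and 17.9 ± 1.20 in isolated cells (SD, n = 4 each). The share of fibre markers was thus lowest at 6 h, where the 7 genes were highest, and its part in the result was not tested. In such bulk RNA, fewer cells of a type and less RNA per cell cannot be told apart.

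Foxo1, the FoxO factor best known for metabolic genes, had 53.9, 67.3, 65.6 and 66.9 RPKM in the 4 libraries at 6 h. It had 5.27, 6.71, 6.15 and 6.66 at 1 d, 3.41, 3.67, 4.48 and 3.70 at 4 d, and 3.26, 3.81, 4.36 and 3.83 in whole muscle. The 6 h libraries stood an order apart from the others, the 1 d libraries lay above those of 4 d and of whole muscle without overlap, and the last pair of groups overlapped. The log2 change was 3.25 ± 0.0815 (SE) at 6 h against 1 d (adjusted p = 1.97e-12) and 3.89 ± 0.0827 against 4 d (adjusted p = 3.17e-12). Ranked from the highest change, Foxo1 was number 31 of 11822 genes against 1 d and number 9 of 11975 against 4 d. Between 1 d and 4 d it differed by 0.64 ± 0.0832 (adjusted p = 4.53e-05), and between 4 d and whole muscle by 0.00 ± 0.0845 (adjusted p = 0.997).

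Foxo3, the factor best known for driving the ligases, was lower throughout, with 5.42, 5.72, 5.51 and 5.09 RPKM at 6 h. It had 1.74, 1.94, 1.85 and 1.90 at 1 d, 1.62, 1.33, 1.43 and 1.35 at 4 d, and 1.04, 1.13, 1.01 and 1.03 in whole muscle. The 4 groups did not overlap and followed the order 6 h, 1 d, 4 d, whole muscle. Foxo3 was higher at 6 h than at 1 d by a log2 change of 1.33 ± 0.0524 (adjusted p = 6.31e-11) and at 4 d than in whole muscle by 0.31 ± 0.0596 (adjusted p = 3.35e-04).

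The ratio of Foxo1 to Foxo3 within a library was 11.7 ± 1.32 at 6 h, 3.33 ± 0.213 at 1 d, 2.69 ± 0.425 at 4 d and 3.63 ± 0.508 in whole muscle (SD, n = 4 each). In two-sided exact permutation tests of the log2 ratio, 6 h differed from each of the other 3 groups at p = 0.0286, the smallest that 4 against 4 allows (adjusted over 12 tests, 0.0429). The other 3 pairs gave p from 0.0571 to 0.371.

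Fbxo32, the ligase subunit atrogin-1, had 155, 154, 158 and 163 RPKM at 6 h. It had 112, 130, 139 and 116 at 1 d, 73.9, 61.5, 67.3 and 58.8 at 4 d, and 106, 115, 117 and 110 in whole muscle. Levels at 1 d and in whole muscle overlapped, and the 4 d libraries lay below all others. Its log2 change was 0.34 ± 0.0617 at 6 h against 1 d (adjusted p = 1.52e-04), a call that ended when all groups were fitted together (adjusted p = 0.236, range over the alternatives 1.73e-06 to 0.236). Against 4 d it was 1.27 ± 0.0603 (adjusted p = 1.01e-09). At 4 d Fbxo32 was lower than in whole muscle, by -0.78 ± 0.0623 (adjusted p = 1.27e-07).

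Trim63, the ligase MuRF1 that binds the thick filament, was the most abundant of the 7 genes per length of gene model, with 1418, 1662, 1616 and 1589 RPKM at 6 h. It had 463, 528, 563 and 476 at 1 d, 186, 162, 199 and 162 at 4 d, and 278, 304, 297 and 302 in whole muscle. The groups did not overlap, and whole muscle lay between 1 d and 4 d. The log2 change was 1.63 ± 0.0686 at 6 h against 1 d (adjusted p = 1.10e-10) and 1.52 ± 0.0782 at 1 d against 4 d (adjusted p = 3.77e-08). In the second comparison Trim63 was number 5 of 11232 genes from the highest change. At 4 d it was lower than in whole muscle by -0.74 ± 0.0633 (adjusted p = 2.31e-07).

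Within a library Trim63 exceeded Fbxo32 by a ratio of 9.98 ± 0.709 at 6 h, 4.08 ± 0.0441 at 1 d, 2.71 ± 0.194 at 4 d and 2.63 ± 0.0850 in whole muscle (SD, n = 4 each). The 4 values at 1 d ran from 4.05 to 4.14 and lay apart from those of every other in vivo group. All pairs of these groups except 4 d and whole muscle differed at p = 0.0286 (two-sided exact permutation tests, adjusted 0.0429), and that pair gave p = 0.571. The scaling of a library cancels in such ratios.

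**Figure D2:**
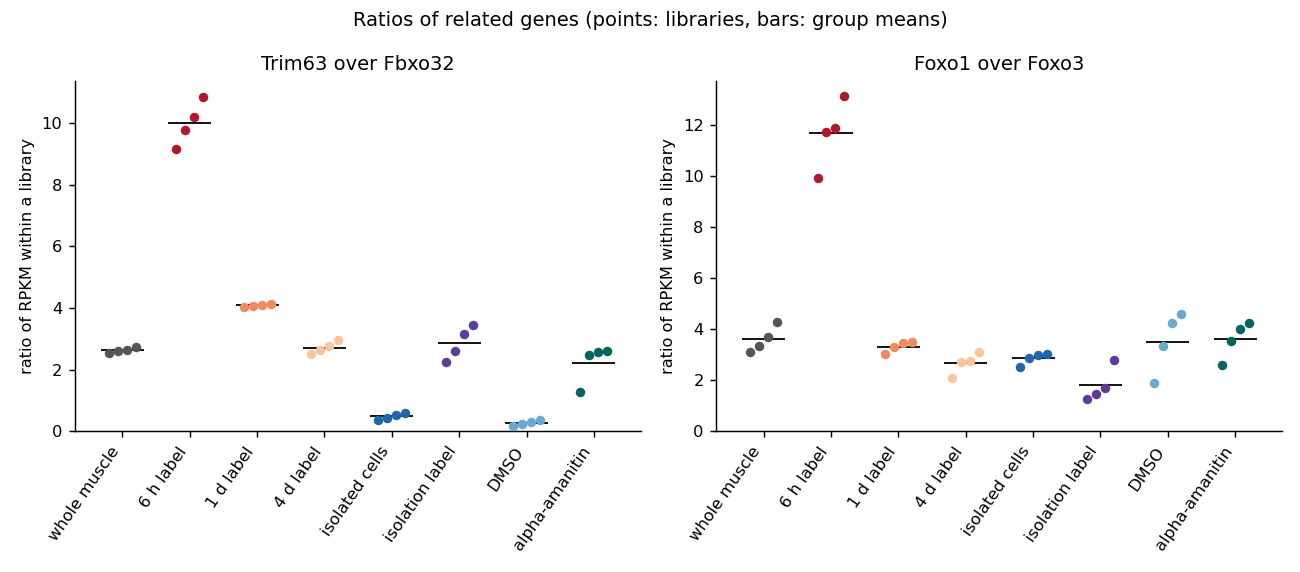
Ratio of Trim63 to Fbxo32 (left) and of Foxo1 to Foxo3 (right) within each library of the labelling table, with bars at the group means. Both ratios are highest at 6 h, with means of 9.98 and 11.7, and the ratio of Trim63 to Fbxo32 is below 1 in isolated cells and with DMSO.

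Ddit4, the mTORC1 inhibitor REDD1, had 236, 331, 315 and 290 RPKM at 6 h. It had 14.1, 11.3, 10.8 and 12.7 at 1 d, 10.53, 9.94, 12.3 and 9.05 at 4 d, and 5.63, 5.84, 6.39 and 6.32 in whole muscle. The lowest 6 h library stood far above the highest of any other group, and the 1 d and 4 d libraries overlapped. At 6 h against 1 d the log2 change was 4.52 ± 0.0997 (adjusted p = 8.99e-13), number 1 of 11822 genes. Against 4 d it was 4.74 ± 0.104 (adjusted p = 4.22e-12), number 3 of 11975. Between 1 d and 4 d it was 0.22 ± 0.0925 and missed the threshold (adjusted p = 0.0628, range over the alternatives 0.0112 to 0.683). Without replicate 3 of the 1 d label it was called (adjusted p = 0.0318), and also without replicate 3 of the 4 d label (adjusted p = 0.0112).

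Sesn1, the other mTORC1 inhibitor, had 58.9, 59.4, 59.6 and 59.5 RPKM at 6 h. It had 34.6, 40.1, 40.01 and 35.96 at 1 d, 20.6, 19.8, 23.4 and 19.5 at 4 d, and 37.8, 41.4, 42.3 and 41.7 in whole muscle. The 6 h libraries were nearly alike, those of 1 d and whole muscle overlapped, and those of 4 d lay below all of these. The log2 change was 0.65 ± 0.0498 at 6 h against 1 d (adjusted p = 3.59e-08) and 0.84 ± 0.0645 at 1 d against 4 d (adjusted p = 6.46e-07). At 4 d Sesn1 was lower than in whole muscle by -0.96 ± 0.0566 (adjusted p = 7.55e-09), the lowest change of the 7 genes there.

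Klf15, which is also one of the Kruppel-like factors, had 157, 194, 186 and 190 RPKM at 6 h. It had 56.7, 58.3, 54.5 and 53.3 at 1 d, 37.5, 35.8, 41.1 and 33.8 at 4 d, and 46.8, 52.0, 53.3 and 50.3 in whole muscle. No groups overlapped, although the lowest 1 d library and the highest of whole muscle differed by less than 0.1 RPKM. The log2 change was 1.69 ± 0.0616 at 6 h against 1 d (adjusted p = 3.18e-11) and 0.58 ± 0.0568 at 1 d against 4 d (adjusted p = 4.09e-06). At 4 d it was lower than in whole muscle by -0.45 ± 0.0579 (adjusted p = 1.20e-05), a call that ended when all groups were fitted together (adjusted p = 0.115, the highest over the alternatives).

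**Figure D3:**
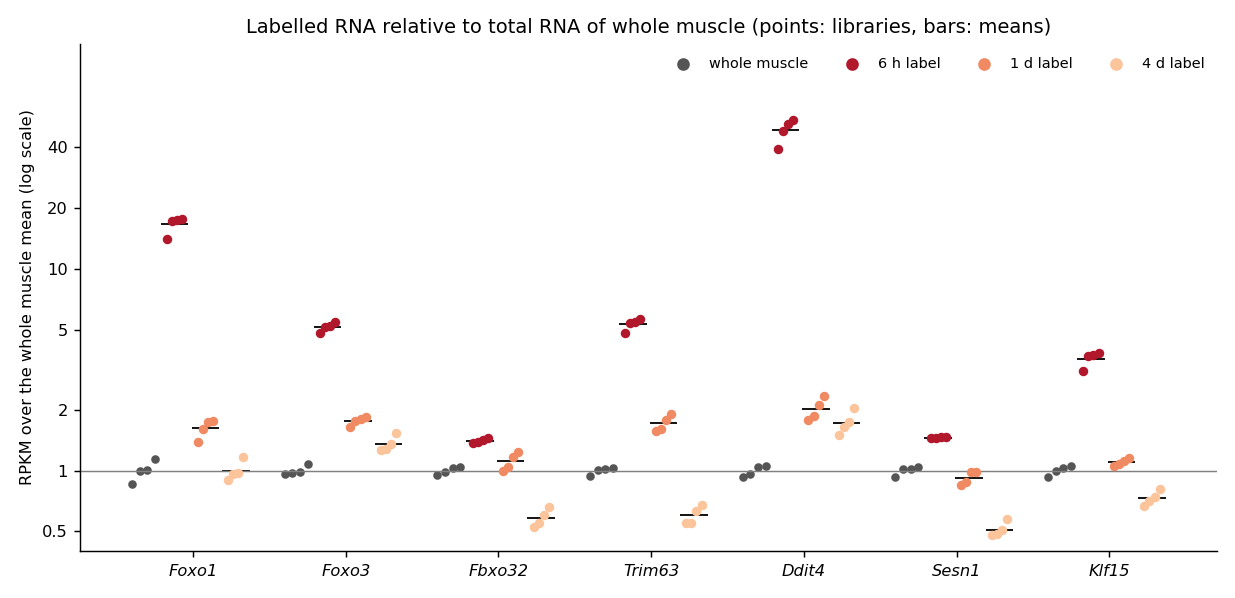
RPKM of each library divided by the whole muscle mean of the same gene (log scale), for the 6 h, 1 d and 4 d labels and for whole muscle itself, with bars at the means. At 6 h the mean runs from 1.40 for Fbxo32 to 48.5 for Ddit4, and at 4 d Sesn1, Fbxo32, Trim63 and Klf15 lie below 1.

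The later labels parted the genes. At 1 d against 4 d, 6 of the 7 genes were higher and 0 lower, where 54.2% of 11232 genes were called, 33.3% higher and 21% lower, and the median change was 0.64 beside 0.04 over all genes. At 1 d against whole muscle 6 were higher and 0 lower, where 82.9% of 11158 genes were called, 28.2% higher and 54.7% lower. Of these, Ddit4 (0.96 ± 0.0737), Trim63 (0.78 ± 0.0602), Foxo1 (0.64 ± 0.0828) and Foxo3 (0.60 ± 0.0549) changed most on the log2 scale. Klf15 (0.14 ± 0.0478) and Fbxo32 (0.14 ± 0.0635, adjusted p = 0.0492) lay close to whole muscle. Klf15 lost its call without replicate 2 of the 1 d label (adjusted p = 0.0581) or replicate 1 of whole muscle (0.0584), and Fbxo32 without any 1 of 5 libraries (0.0613 to 0.179). Sesn1 had -0.11 ± 0.0558 (adjusted p = 0.0724), and 0.10 with library sizes from all reads. It was called lower without replicate 2 or 3 of the 1 d label (0.0389 and 0.0406) or replicate 1 of whole muscle (0.0236).

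At 4 d against whole muscle, 2 genes were higher and 4 lower, where 84.5% of 11347 genes were called, 28.1% higher and 56.4% lower. Ddit4 (0.74 ± 0.0775) and Foxo3 were the higher ones, and Sesn1, Fbxo32, Trim63 and Klf15 the lower ones. The median over the 7 genes was -0.45, beside -0.21 over all genes. Library sizes from all reads moved the median of all genes by 0.11 at 6 h against 1 d, 0.14 at 6 h against 4 d and 0.30 at 6 h against whole muscle. At 1 d and 4 d against whole muscle the shifts were 0.19 and 0.15, and no call of the 7 genes turned its direction in these 5 comparisons. The share of calls that were higher went from 50.7% to 65.4% at 6 h against whole muscle, from 34.04% to 50.3% at 1 d and from 33.3% to 45.1% at 4 d.

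Klf15, Trim63, Ddit4 and other genes of this programme are known to answer to glucocorticoids, whose part in the 6 h levels was not tested. The 12 glucocorticoid-responsive genes of the pathway lists were higher at 6 h as a group. All 12 were called higher against 1 d, 4 d and whole muscle, also with either other library scaling, with medians of 2.07, 2.41 and 2.31 on the log2 scale. Sgk1, a kinase that glucocorticoids raise, had 508 ± 30.9 RPKM at 6 h and 52.4 ± 1.44 at 1 d (log2 change 3.26, adjusted p = 5.46e-14). Tsc22d3 (GILZ), a glucocorticoid receptor target, had 818 ± 29.8 and 179 ± 7.15 (2.19, adjusted p = 5.68e-13). At 4 d against whole muscle 3 of the 12 were higher and 7 lower with a median of -0.18 (4 and 5, median 0.02, with library sizes from all reads), Per1 among the first (1.28) and Dusp1 (-1.42) and Glul (-1.10) among the second. Over all genes tested, 50.0% were called higher and 36.2% lower at 6 h against 1 d, 52.7% and 36.1% against 4 d, and 45.6% and 44.4% against whole muscle. At 1 d against 4 d the shares were 33.3% and 21%, and at 4 d against whole muscle 28.1% and 56.4%. All members and lists were named with earlier results of these data known, so the directions of the lists are a description.

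Of 16 other FoxO targets, 13 were higher and 3 lower at 6 h against 1 d, where 50.0% and 36.2% of all genes were. Against 4 d 14 were higher and 2 lower, where 52.7% and 36.1% of all genes were. Against whole muscle 12 were higher and 3 lower at 6 h. Of 15 tested there at 1 d and at 4 d, 7 were higher and 5 lower at 1 d, and 5 and 8 at 4 d. The shares over all genes were 45.6% and 44.4% at 6 h, 28.2% and 54.7% at 1 d, and 28.1% and 56.4% at 4 d. The lists share some genes, among them Sgk1, which also stands among those of insulin, Akt and mTOR signalling. Pdk4, a kinase that turns muscle from glucose to fat, is also one of the glucocorticoid-responsive genes. It had 1711 ± 70.3 RPKM at 6 h, 303 ± 64.4 at 1 d, 47.6 ± 7.48 at 4 d and 79.9 ± 3.52 in whole muscle. Its log2 changes were 2.52 at 6 h against 1 d (adjusted p = 2.74e-10) and 2.65 at 1 d against 4 d (adjusted p = 4.71e-08). Txnip, an inhibitor of thioredoxin and glucose uptake, had 1375 ± 77.2 RPKM at 6 h and 141 ± 2.89 at 1 d (3.28, adjusted p = 5.46e-14). Sod2, the mitochondrial superoxide dismutase, went the other way, with 52.4 ± 0.140 at 6 h and 105 ± 4.89 at 1 d (-0.99, adjusted p = 9.21e-11).

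Relatives of the 7 genes included several that were lower at 6 h. Of 6 family members analysed, 2 were higher and 4 lower at 6 h against 1 d, with a median of -0.57, where 50.0% and 36.2% of all genes were. At 6 h against whole muscle 3 were higher and 3 lower, with a median of -0.03, where 45.6% and 44.4% of all genes were. Ddit4l (REDD2), the relative of Ddit4, had 131 ± 7.91 RPKM at 6 h and 327 ± 32.6 at 1 d (-1.31, adjusted p = 5.48e-10). Trim55 (MuRF2) and Trim54 (MuRF3), the relatives of Trim63, were lower by -0.89 and -0.63. Foxo4 was lower at 6 h than at 4 d (-0.99, adjusted p = 5.88e-09) but higher at 4 d than in whole muscle (1.88, adjusted p = 2.18e-11), with 3.55 ± 0.0447 and 0.601 ± 0.0469 RPKM. Foxo6 was not analysed here.

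Of 14 other ubiquitin ligases and partners of muscle breakdown, 6 were higher and 7 lower at 6 h against 1 d. Over all genes tested, 50.0% were called higher and 36.2% lower. The median of the list was -0.03 (7 higher and 6 lower, median 0.11, with library sizes from all reads). At 1 d against 4 d, 12 were higher and 0 lower, where 33.3% and 21% of all genes were. At 4 d against whole muscle 3 were higher and 10 lower, where 28.1% and 56.4% of all genes were. Wwp1, a ligase of the HECT type, had 15.5 ± 0.499 RPKM at 6 h and 36.98 ± 2.18 at 1 d (-1.23, adjusted p = 5.39e-11). Cblb, a ligase that acts on the insulin receptor substrate, had 7.74 ± 0.314 and 3.13 ± 0.190 (1.18, adjusted p = 1.66e-10). Fbxo30 (MUSA1) was higher at 6 h than at 4 d by 1.83 (adjusted p = 8.01e-11). Ube2b, a ubiquitin-conjugating enzyme, was lower at 4 d than in whole muscle by -1.08 (adjusted p = 2.28e-10).

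Of 13 autophagy genes, 5 were higher and 7 lower at 6 h against 1 d (6 and 5 with library sizes from all reads). Against 4 d, 9 were higher and 3 lower. Over all genes tested, 50.0% were called higher and 36.2% lower against 1 d, and 52.7% and 36.1% against 4 d. Gabarapl1, which coats autophagosomes, had 110 ± 3.24 RPKM at 6 h and 56.0 ± 3.17 at 1 d (0.96, adjusted p = 3.52e-10), and Atg14 was higher by 1.08. Tfeb, a transcription factor of lysosomal genes, was lower by -0.83 (adjusted p = 3.68e-10). Against whole muscle 4 of the 13 were higher and 8 lower at 6 h with a median of -0.19. Over all genes tested there, 45.6% were called higher and 44.4% lower. With library sizes from all reads, however, 8 of the 13 were higher and 4 lower, with a median of 0.17.

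Of 22 genes of insulin, Akt and mTOR signalling, 13 were higher and 6 lower at 6 h against 1 d, where 50.0% and 36.2% of all genes were, with a median of 0.29. Rictor, a subunit of mTORC2, had 8.41 ± 0.343 RPKM at 6 h and 3.09 ± 0.207 at 1 d (1.31, adjusted p = 8.13e-11). Tsc2, which holds mTORC1 off, was lower by -1.03 (adjusted p = 4.18e-11). At 4 d against whole muscle 12 were higher and 10 lower, where 28.1% and 56.4% of all genes were. Rheb, the activator of mTORC1, was lower there by -1.28 (adjusted p = 1.17e-10).

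**Figure D4:**
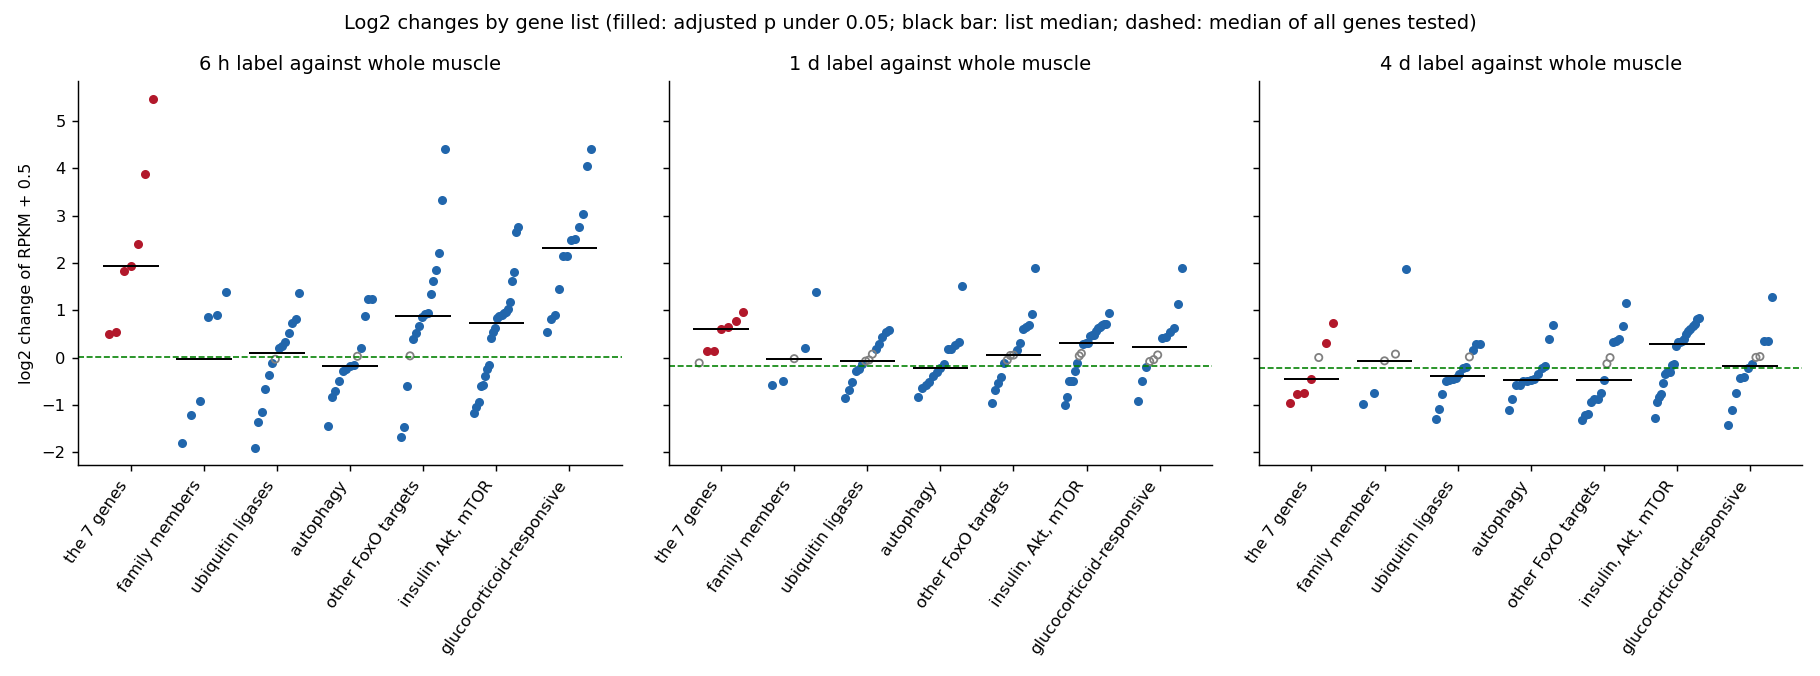
Log2 change of RPKM + 0.5 against whole muscle for the 7 genes and for the genes of each pathway list, at 6 h, 1 d and 4 d, with filled points for adjusted p under 0.05, black bars at list medians and a dashed line at the median of all genes tested. The medians of the 7 genes (1.93) and of the glucocorticoid-responsive genes (2.31) are the highest at 6 h, and the same lists lie at -0.45 and -0.18 at 4 d (the latter 0.02 with library sizes from all reads).

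Across the 16 libraries of the 3 label groups and whole muscle, the 7 genes fell into looser and tighter pairs. The Pearson r of log2(RPKM + 0.5) was 0.988 for Foxo1 and Ddit4, 0.980 for Foxo1 and Klf15 and 0.969 for Fbxo32 and Sesn1, and lowest, 0.610, for Fbxo32 and Ddit4. These points share 4 groups and a library scaling, so r describes the group pattern. Among 7343 genes ranked by this r, the pattern of Foxo1 was most like that of Napb (0.9975), Synj2 (0.9960) and Aff1 (0.9955), and that of Ddit4 most like that of Lipe (0.9970). Foxo3 was nearest to Tns2 (0.9937), Trim63 to B4galt1 (0.9958), Klf15 to Ifnar1 (0.9964), Fbxo32 to Tubb4b (0.9885) and Sesn1 to Fam134b (0.9892). Gabarapl1 (0.9931) was the third nearest to Trim63, Ccng2 (0.9778), a cyclin, the third nearest to Fbxo32, and Glul (0.9886), which makes glutamine, the second nearest to Sesn1.

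Isolated stem cells held little of the ligase RNA. Trim63 had 0.779, 0.686, 1.05 and 1.31 RPKM there, against 278 to 304 in whole muscle, and Fbxo32 had 1.74, 1.80, 1.98 and 2.17, against 106 to 117. Neither overlapped whole muscle, and the log2 changes were -7.69 ± 0.108 (adjusted p = 9.40e-15) and -5.54 ± 0.0564 (adjusted p = 8.63e-16). Klf15 was lower by -3.25 ± 0.0602, from 50.6 ± 2.79 to 4.86 ± 0.441 RPKM, and Sesn1 by -1.77 ± 0.0531, from 40.8 ± 2.05 to 11.6 ± 0.801.

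The FoxO factors and Ddit4 were higher in the isolated cells. Foxo1 had 5.57, 6.26, 7.06 and 6.99 RPKM, Foxo3 2.20, 2.10, 2.43 and 2.29, and Ddit4 10.8, 11.5, 11.2 and 11.3, all above every whole muscle library. The log2 changes were 0.69 ± 0.0868, 0.82 ± 0.0549 and 0.84 ± 0.0461. Thus 3 of the 7 genes were higher and 4 lower, where 95.3% of 14813 genes were called, 48.8% higher and 46.5% lower. Library sizes from all reads moved the median of all genes by 1.53 here, and Sesn1 was then at -0.19 (still called lower), Klf15 at -1.71 and Foxo1 at 2.16. The ratio of Trim63 to Fbxo32 was 0.491 ± 0.0964 in the isolated cells (n = 4). The fibre markers took 0.0593% to 0.129% of reads there, and their part in the low levels of both ligases was not tested.

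The order of levels over the 8 groups of the labelling table differed between genes. Trim63 ran from 1571 ± 107 RPKM at 6 h down through 1 d, whole muscle, 4 d, isolation label, alpha-amanitin and isolated cells to 0.435 ± 0.129 with DMSO, and no neighbours in that order overlapped. Fbxo32 had the same order, from 157.5 ± 3.98 to 1.58 ± 0.1003, and only 1 d and whole muscle overlapped. For Foxo1 alpha-amanitin came next after 6 h, at 14.7 ± 4.65, and the other 6 groups followed between 6.47 and 3.81 with each neighbour overlapping the next. Ddit4 was lowest in whole muscle, at 6.04 ± 0.367, while Sesn1 was second highest there, at 40.8 ± 2.05, and overlapped 1 d. Klf15 followed the order of the ligases except that alpha-amanitin (12.1 ± 4.14) and isolation label (12.1 ± 6.26) overlapped.

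RNA tagged during the isolation held more ligase RNA than the total RNA of isolated cells. Trim63 had 36.8, 77.2, 90.1 and 39.2 RPKM and Fbxo32 10.7, 34.3, 34.5 and 12.4 in the 4 libraries, and the fibre markers took 2.12%, 6.59%, 7.05% and 2.22% of their reads. Replicates 2 and 3 were high and replicates 1 and 4 low in all 3 of these measures. Adipocyte markers, at 0.0194%, 0.0601%, 0.0622% and 0.0232% of reads, were split in the same way, against 0.00129% to 0.00208% in isolated cells. Immune markers took 0.0461% to 0.0561% (0.00872% to 0.00928% in isolated cells) and erythroid markers 0.0287% to 0.0418% (0.00205% to 0.00232%). Satellite cell markers took 0.120% to 0.240%. The part of these markers in the result was not tested. The log2 changes were 5.31 ± 0.307 for Trim63 (adjusted p = 9.14e-07) and 3.08 ± 0.382 for Fbxo32 (adjusted p = 1.13e-04). These libraries were the shallowest, with 2321903 to 7742378 reads.

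Klf15 had 6.82, 17.8, 17.2 and 6.54 RPKM in the same libraries (1.09 ± 0.333, adjusted p = 0.0182) and Ddit4 14.4, 14.3, 18.7 and 31.1 (0.71 ± 0.230, adjusted p = 0.0236). Neither call held with library sizes from all reads, where adjusted p was 0.203 for Klf15 and 0.908 for Ddit4, and that of Ddit4 also ended without any 1 of the isolated cell libraries (0.0510 to 0.0576). Foxo1 was lower, with 4.10, 5.24, 3.32 and 3.77 RPKM (-0.61 ± 0.172, adjusted p = 0.0128). Foxo3 (0.07 ± 0.279) and Sesn1 (0.00 ± 0.233) missed the threshold. In all 4 of the 7 genes were higher and 1 lower, where 59.5% of 14863 genes were called, 29.8% higher and 29.7% lower. Library sizes from all reads moved the median of all genes by -0.64 and gave 2 higher and 2 lower.

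Cells isolated with alpha-amanitin also held more of most of these RNAs than DMSO cells. Trim63 had 4.67, 15.4, 20.4 and 23.3 RPKM with alpha-amanitin and 0.306, 0.609, 0.381 and 0.445 with DMSO (3.94 ± 0.411, adjusted p = 3.73e-04). Fbxo32 had 3.68, 6.19, 7.88 and 8.99 against 1.63, 1.68, 1.53 and 1.46 (1.73 ± 0.230, adjusted p = 0.00138). The groups did not overlap for either gene. The fibre markers took 0.832%, 2.05%, 2.19% and 2.56% of the reads with alpha-amanitin, in the same order as both ligases, and 0.0362% to 0.0540% with DMSO. The alpha-amanitin libraries held 0.00470% to 0.0132% of reads in adipocyte markers, against 0.000175% to 0.000484% in DMSO libraries, and 0.377% to 0.433% in satellite cell markers, against 0.557% to 0.642%. The part of these markers in the result was not tested.

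The transcription factors were higher too. Klf15 had 5.92, 14.4, 14.2 and 13.97 RPKM against 3.09, 3.35, 2.94 and 3.56 (1.68 ± 0.261, adjusted p = 0.00304), and Foxo3 had 3.03, 4.29, 4.34 and 4.23 against 2.22, 1.65, 1.60 and 1.77 (0.95 ± 0.153, adjusted p = 0.00351). Foxo1 had 7.96, 15.3, 18.4 and 17.05 against 4.21, 5.50, 6.79 and 8.13 (1.16 ± 0.280, adjusted p = 0.0118), with 1 overlapping pair of libraries. Alpha-amanitin replicate 1 was the lowest of its group for all 7 genes and for the fibre markers. The scaling of this library was also the highest of its group (1.54, against 0.917 to 0.980), which lowers its RPKM.

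The mTORC1 inhibitors were not called. Ddit4 had 17.2, 39.96, 41.2 and 39.97 RPKM against 28.1, 16.98, 15.8 and 19.5 (0.72 ± 0.309, adjusted p = 0.0766). Without replicate 1 of alpha-amanitin it was called at 1.03 (adjusted p = 9.98e-05), and without replicate 1 of DMSO at 0.89 (adjusted p = 0.0498). Sesn1 had 9.03, 17.96, 19.2 and 17.8 against 19.8, 13.5, 14.03 and 13.9 (0.02 ± 0.253, adjusted p = 0.946), and turned to -0.48 (adjusted p = 0.00282) with library sizes from all reads. In all 5 of the 7 genes were higher and 0 lower, where 44.2% of 13710 genes were called, 33.9% higher and 10.3% lower. That share rests on 6058 calls, which became 10660 without replicate 1 of alpha-amanitin, 2828, 2930 and 3162 without its replicates 2, 3 and 4, and 3420, 3344 and 3560 without replicates 2, 3 and 4 of DMSO. Library sizes from all reads moved the median of all genes from 0.28 by -0.56, and the share of higher calls from 76.7% to 42.3%.

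**Figure D5:**
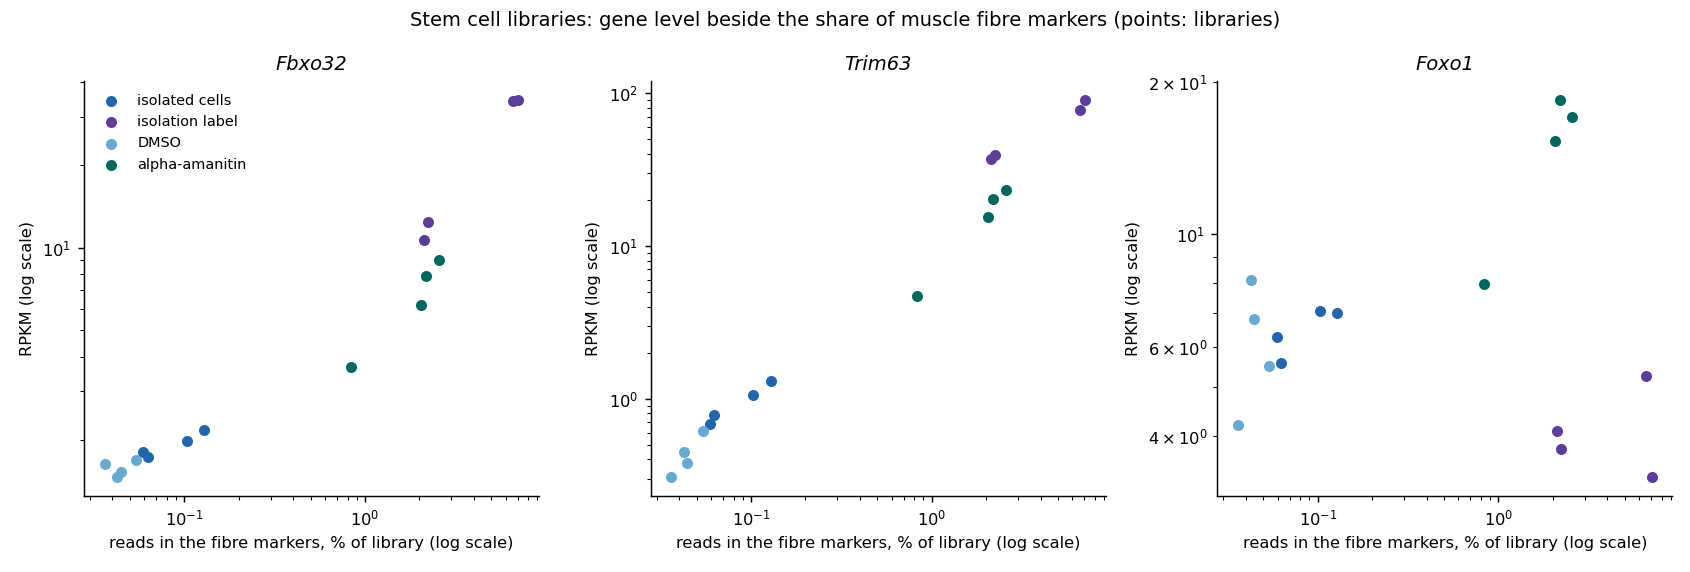
RPKM of Fbxo32, Trim63 and Foxo1 beside the share of reads in 10 fibre markers (both log scales) in the 16 stem cell libraries of the labelling table. Libraries with more fibre reads have higher Fbxo32 and Trim63, while Foxo1 is highest with alpha-amanitin and lowest in the isolation label.

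Of the 6 genes tested in fixed against unfixed cells, Sesn1 was the only one called. Sesn1 had 42.6, 40.8, 17.3 and 38.3 RPKM in the fixed libraries (replicates 1, 3, 4 and 5) and 17.4, 16.4 and 13.5 in the unfixed ones (1.04 ± 0.323, adjusted p = 0.0440). Fixed replicate 4 lay within the range of the unfixed libraries. Satellite cell markers took 0.122% to 0.251% of reads in fixed and 0.533% to 0.584% in unfixed libraries, and endothelial markers 0.00289% to 0.00880% and 0.0213% to 0.0782%, and their part in the result was not tested. The call of Sesn1 held without fixed replicate 4 (adjusted p = 0.00155) and ended without any other library (0.0766 to 0.162). Thus 1 gene was higher and 0 lower, where 23% of 12816 genes were called, 12.2% higher and 10.8% lower. That share rests on 2951 calls, which became 1862 without unfixed replicate 2 and 1527 without unfixed replicate 3.

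Foxo1 had 29.9, 19.3, 26.6 and 41.7 RPKM fixed and 14.9, 19.4 and 17.4 unfixed (0.71 ± 0.274, adjusted p = 0.0923), and passed the threshold only without fixed replicate 3 (0.0449). Ddit4 spread from 8.502 to 66.5 RPKM over the fixed libraries and Klf15 from 4.11 to 24.1, so neither difference (-0.26 ± 0.584 and 0.35 ± 0.521) exceeded the spread. Foxo3 (0.49 ± 0.369) and Fbxo32 (-0.40 ± 0.389) missed the threshold as well. Trim63 was too low to be tested, with 0.138 to 0.685 RPKM fixed and 5.93, 0.434 and 2.40 unfixed, and in the unfixed libraries it followed the fibre markers (0.612%, 0.0573% and 0.235% of reads), whose part was not tested. Of the 12 glucocorticoid-responsive genes 0 were higher and 6 lower in fixed cells, where 12.2% and 10.8% of all genes were. The median of the list was -2.14. Sgk1 had 11.3 ± 3.97 RPKM fixed (n = 4) and 252 ± 111 unfixed (n = 3; -4.39, adjusted p = 5.97e-05), and Pdk4 was lower by -2.92 (adjusted p = 2.70e-04). The relatives Sesn2 (-2.84, adjusted p = 2.57e-04) and Foxo4 (2.15, adjusted p = 0.00686) were called in opposite directions.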

How the data were processed

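Levels are the RPKM values that the authors deposited, 1 table for labelling and inhibition and 1 for fixation: reads per kilobase of each gene's model, scaled by library size. The submitters' processing notes name Trim Galore, STAR, featureCounts of Subread and edgeR, with mm10. Versions are not given in these notes. In the larger table the header is shifted by 1 cell, and columns were read by position after that shift. Dividing by the value of 1 read gave whole reads (within 0.1) for 100% of values, 2321903 to 102619074 reads per library in the larger table and 22704011 to 25045404 in the other. The scaling of libraries in the deposited RPKM ran from 0.612 to 1.95 and from 0.903 to 1.01. There were 0 value columns left unused and 0 identical pairs of libraries. Of genes with a blank symbol, 1350 of 1488 and 468 of 555 took one from GENCODE by their ID. No test crosses the tables, because each has its own normalisation.

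Groups were compared with limma 3.58.1 under R 4.3.3, on log2(RPKM + 0.5) with the trend option, keeping genes that reached 1 RPKM in 3 or more of the libraries compared. Every adjusted p of a gene comes from this limma fit, with the Benjamini-Hochberg adjustment over all genes tested and a threshold of 0.05. The fit was tested on simulated data. Ratios were compared by exact permutation tests. Tables and figures used Python 3.11.15, pandas 2.3.3, numpy 2.4.6 and matplotlib 3.10.9.

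The 7 genes, the 6 pathway lists, the markers and the tests were chosen with earlier results of these data known. Besides the 7 genes in each comparison, the text names at most 3 genes per list and comparison, by adjusted p. It also names up to 3 genes most alike each of the 7, among genes with a mean of 5 RPKM or more in a group. Genes without a symbol, and those named Gm with a number or by a Rik name, were left out of that ranking. Whether counting used strand is not given in these notes. Alternatives were other library scalings, a pseudocount of 1, no filter, limma-voom on the recovered reads, all groups in 1 fit, a replicate block and leaving out each library.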

Additional observations from a re-analysis of the deposited data

Results flagged for a closer look

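In 7 of 63 groups of 4 libraries, 1 library stood far from the other 3 in 1 gene, where chance flags about 1 group in 20. Alpha-amanitin replicate 1 was far below its group in Foxo3 (3.03 RPKM), Ddit4 (17.2), Sesn1 (9.03) and Klf15 (5.92). Its fibre marker share was the lowest as well. The scaling of that library in the deposited RPKM was 1.54, against 0.917 to 0.980 in replicates 2 to 4. A higher scaling lowers every RPKM of a library. DMSO replicate 1 was far above its group in Sesn1 (19.8 RPKM). Its scaling was 1.25, against 1.60 to 1.66 in replicates 2 to 4. The part of the scaling in the flags of both libraries was not tested. Foxo1 in replicate 1 of the 6 h label (53.9 RPKM) lay below the other 3 of that label, and Sesn1 in fixed replicate 4 (17.3 RPKM) below the other fixed libraries.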

How the results depend on the processing

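The count of the 7 genes called stayed within 1.5 times in 9 of 10 comparisons under each alternative run. Fixed against unfixed cells was the exception: the 1 call there became 0 with median-of-ratios factors and with limma-voom (adjusted p of Sesn1 0.0607 and 0.0544), and ran from 0 to 1 when single libraries were left out. Sesn1 in alpha-amanitin against DMSO turned from 0.02 to -0.48 with library sizes from all reads. Of 476 single-gene values under the alternatives other than leaving out a library, 457 kept their side of the threshold and, where called, their direction. Values that changed sign without a call in either fit count among these. A further 13 lost the call and 5 gained one. Fitting all groups together also ended the calls of Fbxo32 at 6 h against whole muscle (adjusted p = 0.0824), of Foxo3 (0.355) and Klf15 (0.149) at 1 d against 4 d, of Fbxo32 (0.655) and Klf15 (0.652) at 1 d against whole muscle and of Foxo3 (0.107) at 4 d against whole muscle. The call of Fbxo32 at 1 d against whole muscle also ended without the filter (0.0555). Counts over all genes moved with that fit from 6090 to 864 at 1 d against 4 d, from 9250 to 5527 at 1 d and from 9586 to 6037 at 4 d against whole muscle, and from 6058 to 9291 for alpha-amanitin. Deviations from the group means had r from -0.591 to 0.237 between same-numbered libraries. At 4 d against whole muscle r was 0.0407 to 0.237 for equal numbers and at most 0.06 for others. Equal numbers matched best in 3 of 4 libraries there, at 6 h against whole muscle and in isolated cells against whole muscle. In the other comparisons they did so in 0 to 2. Whether the numbers mark pairs is thus not settled, and the main fit took libraries as unpaired. The replicate block moved the count over all genes from 6058 to 1978 for alpha-amanitin and from 2951 to 1825 for fixation, and among the 7 genes it changed 1 call, that of Sesn1 at 1 d against whole muscle (-0.11, adjusted p = 0.0468). All groups in 1 fit was not run for the fixation table, which holds only its 2 groups.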
